A study of Homo sapiens with 17 samples.

Results

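The promoter interactions of 10 T-box genes (*TBX1*, *TBX2*, *TBX3*, *TBX4*, *TBX5*, *TBX15*, *TBX18*, *TBX20*, *TBR1* and *EOMES*) were examined in human pluripotent stem cells (PSCs) of the naive and the primed state, and *TBX3* was set against the other 9 genes. The interaction lists carry no gene names, so each gene was assigned to the baited *Hin*dIII fragment that holds one of its transcript starts in GENCODE release 44. Each gene had 1 such fragment, which makes 10 of the 15982 baited fragments, and a T-box bait stood at one end or both of 181 interactions, out of 128955 that were listed in naive, primed or both kinds of PSCs. Promoter Capture Hi-C (PCHi-C) sequences ligated pairs of chromatin fragments after the pairs that contain a promoter have been captured, and the authors scored each pair with CHiCAGO, in which a higher score means more reads than the background at that distance predicts. Pairs with a score of at least 5 are listed. Both cell types were the established embryonic stem cell line H9 NK2, kept at 5% oxygen without feeder cells. Naive PSCs grew on Matrigel in t2iL+PKCi medium, which holds the kinase inhibitors PD0325901, CHIR99021 and Go6983 together with LIF, and primed PSCs grew on Vitronectin in TeSR-E8. As only 1 line was used, differences between the groups are differences between cultures of that line. H3K4me1, a histone mark of enhancers and of the flanks of promoters, was profiled in 2 naive and 3 primed libraries with CUT&RUN, in which antibody-bound nuclease releases the marked chromatin. RNA was not analysed here.

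T-box factors bind DNA through the domain that gives the family its name and act mostly as switches of tissue identity in the embryo. *TBX3* is known as an active gene of naive pluripotent cells and later acts in limb, mammary gland and heart, whereas *TBX4*, *TBX5*, *TBX15*, *TBX18*, *TBX20* and *TBR1* serve limb, heart, skeleton and brain and are silent or poised in pluripotent cells. *EOMES* drives the formation of mesoderm and endoderm, and is poised for early activation.

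A few partner regions and promoters show the kind of DNA on which the results below turn. The first region lies in a primed-only *TBX3* partner on the upstream side of *TBX5*. The other lies in the *TBX15* partner with the largest excess of H3K4me1 in primed PSCs. No gene of GENCODE release 44 overlaps either region, and both are given on the plus strand of GRCh38. The promoters are the 250 bases before the upstream start of *TBX5*, which had no interaction in naive PSCs, and before the start of *EOMES*, which had the most, both from RefSeq (GRCh38.p14) and on the strand of the gene. Capitals mark a match to one of 4 motifs, sought on both strands: the T-box half-site GGTGTGA, the octamer TGCAAAT, the TFAP2 motif GCCNNNGGC and the SP/KLF motif GGGCGG.
TBX3 primed partner, chr12:114448904-114449203: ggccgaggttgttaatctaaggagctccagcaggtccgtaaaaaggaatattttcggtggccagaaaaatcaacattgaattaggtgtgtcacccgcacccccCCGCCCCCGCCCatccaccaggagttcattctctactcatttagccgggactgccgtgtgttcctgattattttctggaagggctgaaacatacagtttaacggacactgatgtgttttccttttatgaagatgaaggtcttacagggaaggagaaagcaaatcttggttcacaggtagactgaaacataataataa
TBX15 primed partner, chr1:118249742-118250041: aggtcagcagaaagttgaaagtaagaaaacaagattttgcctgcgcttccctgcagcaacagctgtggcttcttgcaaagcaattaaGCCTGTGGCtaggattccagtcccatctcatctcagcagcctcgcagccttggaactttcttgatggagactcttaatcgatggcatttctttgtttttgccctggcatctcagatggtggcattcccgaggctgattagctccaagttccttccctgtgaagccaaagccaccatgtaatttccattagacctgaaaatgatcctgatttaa
TBX5 promoter, chr12:114408443-114408692: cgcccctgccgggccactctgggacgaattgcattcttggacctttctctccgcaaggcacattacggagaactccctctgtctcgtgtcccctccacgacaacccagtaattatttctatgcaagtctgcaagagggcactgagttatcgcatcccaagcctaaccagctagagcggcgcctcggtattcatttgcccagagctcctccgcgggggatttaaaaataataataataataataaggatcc
EOMES promoter, chr3:27722324-27722573: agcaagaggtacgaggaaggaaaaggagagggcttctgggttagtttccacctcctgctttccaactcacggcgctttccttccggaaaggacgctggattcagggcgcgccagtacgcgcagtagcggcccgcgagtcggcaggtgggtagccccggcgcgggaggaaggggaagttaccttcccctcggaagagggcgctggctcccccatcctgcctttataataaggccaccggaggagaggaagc

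The *TBX3* region held 2 adjacent SP/KLF matches and 9 CpG dinucleotides. The *TBX15* region held 1 TFAP2 match. In 300 bases around the starts of all 35116 RefSeq promoters, SP/KLF was found in 45.0% and TFAP2 in 23.2%, but promoters are richer in CpG (median 14) than these distal regions and are no measure of how common a match is there. RefSeq windows were on hand for *TBX1*, *TBX4*, *TBX5*, *TBX18*, *TBX20*, *TBR1* and *EOMES*, with 2 for *TBX5*. None of these 8 windows of 250 bases held a T-box half-site or an octamer, which 2.76% and 3.67% of all promoters hold. SP/KLF was found at *TBX4*, *TBX18* and *TBX20*, against 42.6% of all promoters, and TFAP2 at *TBX20* only, where a match overlaps the SP/KLF one, against 19.8%. CpG dinucleotides ranged from 4 at *TBR1* to 31 at *TBX20*, around a median of 11 over all promoters. A match to letters does not show that a factor binds.

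The T-box promoters had 95 interactions in naive and 142 in primed PSCs, a ratio of 1.49 primed over naive (95% interval from counting error 1.15 to 1.94). Over all baited fragments the ratio was 1.12, and for T-box interactions with at least 10 reads it was 1.24. There is 1 list per cell type, in which the authors combined 2 replicates, so this difference has no replicate check and was not tested, and intervals cover counting error only. The reads of all listed interactions summed to 2868657 in naive and 3069060 in primed PSCs. At least 2 times and at least 5 more interactions in primed PSCs were listed for 6 of the 10 genes (*TBX3*, *TBX4*, *TBX5*, *TBX15*, *TBX18* and *TBR1*), against 10.9% of all baited fragments. None of the 10 met the same rule in naive PSCs, against 8.25%. The number of interactions was lower in primed PSCs at *TBX2* and *EOMES*, which together held most of the naive interactions. Without these 2 genes there were 27 interactions in naive and 90 in primed PSCs.

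**Figure D1:**
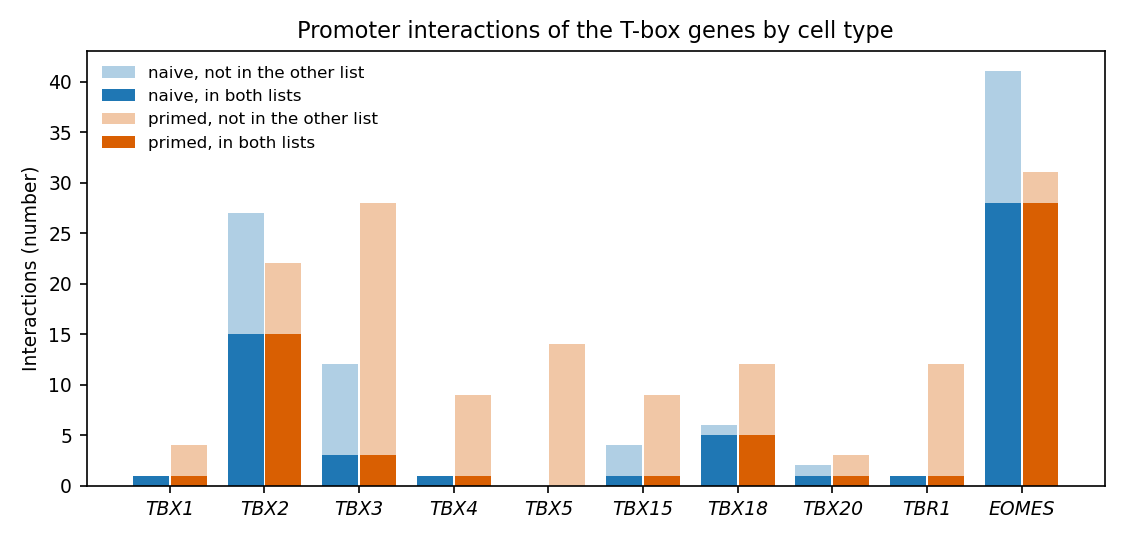
Bars give the number of PCHi-C interactions of each T-box promoter in the naive (blue) and primed (orange) list, with the full colour for pairs listed in both cell types and the pale colour for pairs listed in 1 of them. *TBX5* has 0 naive and 14 primed interactions, and *EOMES* has 41 and 31.

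*TBX3*, the gene known to be active in naive PSCs, did not have more interactions there. Its bait, chr12:114681266-114685800, had 12 interactions in naive and 28 in primed PSCs, and 3 pairs were in both lists. Only 3.03% of baited fragments gained as many in primed PSCs. *TBX3* is transcribed from the minus strand, and all 12 naive partners lay upstream of it, at higher coordinates. Of the 28 primed partners, 4 lay upstream and 24 on the other side, towards *TBX5*, *LHX5* and the distant *HOXC* cluster, where naive PSCs had 0.

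The upstream partners of *TBX3* fell into 2 places and overlapped no protein-coding gene. Under 0.6 Mb upstream, at 336 to 492 kb, 9 fragments were listed in naive PSCs with scores of 5.0 to 11.58 and 21 to 37 reads. Primed PSCs shared 2 of them, chr12:115163020-115166906, with a score of 11.58 in naive and 6.29 in primed PSCs, and chr12:115166991-115167766, with 9.3 and 7.25. The read numbers of the first pair were 37 and 20. Allowing both ends of an interaction to move by 10 kb raised the naive *TBX3* interactions with a primed counterpart from 3 to 10 of 12, so most naive contacts here had a primed neighbour. The second place, at 1060 to 1076 kb, held 3 naive and 2 primed interactions, with 10 to 14 reads each.

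In primed PSCs *TBX3* contacted 8 neighbouring fragments over *LHX5*, a LIM homeobox gene of the developing forebrain, and its antisense gene *LHX5-AS1*, at 1202 to 1224 kb. Their scores ran from 10.24 to 38.75 and their reads from 15 to 64, with the highest score at chr12:113466234-113468047, which overlaps exons of *LHX5*, and the most reads at the *LHX5* bait itself. *TBX5* shared 3 of these fragments, with scores of 6.16 to 8.6 and 7 to 13 reads at 925 to 935 kb. In all, 5 partner fragments were common to *TBX3* and *TBX5*, and all of these contacts were primed-only. *TBX3* and *TBX5*, which stand next to each other and both act in the limb and heart, also contacted each other directly in primed PSCs (277 kb, score 5.73, 26 reads). A further 4 *TBX3* partners covered chr12:114437667-114449233 upstream of *TBX5*, with scores of 7.02 to 11.81 and 39 to 58 reads.

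The longest *TBX3* interactions joined it with 9 fragments in and beside the *HOXC* cluster, the homeobox genes of the posterior body axis, 60637 to 60756 kb away. The highest scores were 19.05 at *HOXC11* and 16.68 at *HOXC13*. Each of these 9 contacts rested on 3 to 5 reads, and the fragments are neighbours, so they are not 9 separate observations.

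**Figure D2:**
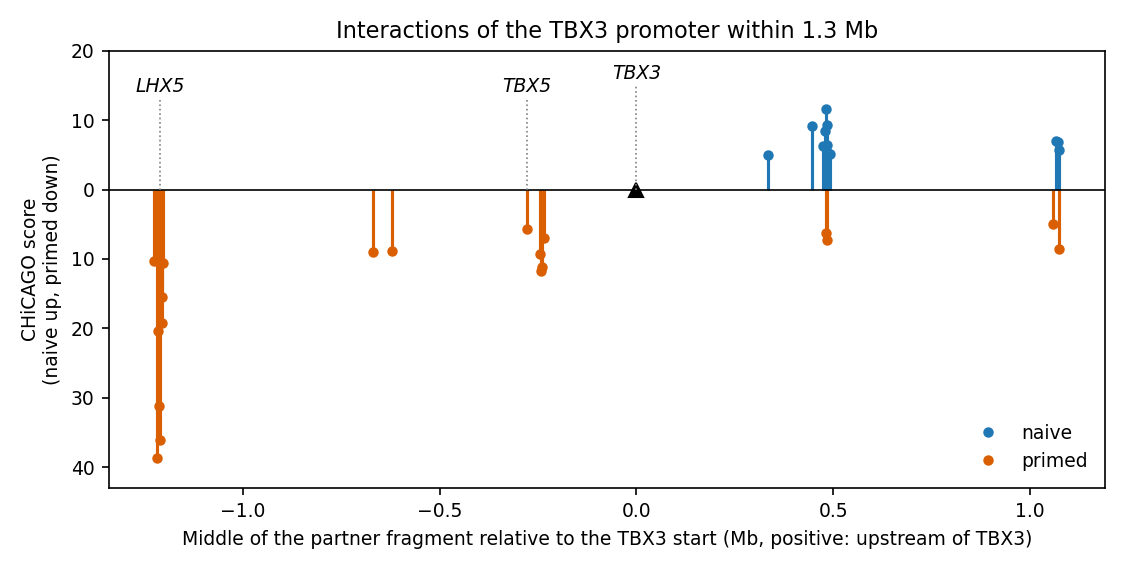
CHiCAGO scores of the *TBX3* interactions within 1.3 Mb (the 9 *HOXC* contacts are left out), by the position of the partner fragment relative to the *TBX3* start in Mb, with naive scores above and primed scores below the line. Naive partners stand upstream only, and the tallest primed scores, up to 38.75, stand at *LHX5*.

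The next gene on this chromosome, *TBX5*, which builds the forelimb and the atria and septa of the heart, had no interaction in naive and 14 in primed PSCs (bait chr12:114393661-114419122). A gain this large was seen for 3.79% of baited fragments. Apart from *TBX3* and *LHX5*, its partners were intergenic fragments at 219 to 392 kb and a fragment in its own gene body 16.9 kb away (173 reads). The highest score, 12.75 with 28 reads, was at chr12:114170008-114170611.

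*TBX2* and *TBX4*, close relatives of *TBX3* and *TBX5* that lie side by side on chromosome 17, differed from each other in the direction of the change. *TBX2*, a repressor in heart and limb, had 27 interactions in naive and 22 in primed PSCs, of which 15 were in both lists. In naive PSCs 26 of the 27 and in primed PSCs 17 of the 22 lay in the neighbouring gene *BCAS3*. The median score of the 15 shared pairs was 10.6 in naive and 8.44 in primed PSCs, and 13 of the 15 had the higher score in naive PSCs. *TBX4*, which acts in hindlimb and lung, had 1 interaction in naive and 9 in primed PSCs. The 2 genes contacted each other in primed PSCs alone (57.2 kb, score 7.78, 125 reads), and 2 further *TBX4* fragments were partners of *TBX2*. Both genes also had contacts with the *HOXB* cluster about 13 Mb away in primed PSCs, 1 for *TBX2* and 2 for *TBX4*, each with 4 reads.

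Among the genes of mesoderm outside the limb, *TBX15* (skeleton and skin) had 4 interactions in naive and 9 in primed PSCs, *TBX18* (sinus node and ureter) 6 and 12, *TBX20* (heart) 2 and 3, and *TBX1* (pharyngeal arches) 1 and 4. The *TBX15* partners lay at 659 to 915 kb in and beside *SPAG17* and had at most 10 reads. For *TBX18*, 5 of the 6 naive pairs were also in the primed list, the strongest at chr6:84422640-84424911 with scores of 11.79 and 21.05. Its primed-only partners included the promoters of *RIPPLY2*, a gene of somite formation, at 912 kb (score 11.13), and *CYB5R4* at 906 kb (score 7.35). The longest was a fragment in an intron of *SIM1*, a gene of the hypothalamus, at 15694 kb with 3 reads, and its H3K4me1 was lower in naive PSCs (-2.29 ± 0.36, adjusted p = 1.7e-05, limma). *TBX20* had a contact in both lists with *DPY19L1* (scores 6.82 and 6.64) and had 2 primed contacts in *MATCAP2* at 1111 and 1114 kb. *TBX1* contacted *TXNRD2* in both cell types and *ESS2* (score 6.32) in primed PSCs only. A second baited fragment near *TBX18*, which holds starts of *TBX18-AS1*, was not counted.

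*TBR1*, a gene of cortical neurons, had 1 interaction in naive and 12 in primed PSCs. The pair with *PSMD14* was in both lists, with a score of 10.54 in naive and 9.03 in primed PSCs. A further 10 primed partners formed a run of fragments in and beside *TANK* at 165 to 193 kb, with scores up to 16.41. The last was a fragment between *DLX1* and *DLX2*, genes of forebrain interneurons, at 10679 kb with 4 reads.

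*EOMES* had 41 interactions in naive and 31 in primed PSCs. As many in naive PSCs were listed for 0.695% of baited fragments. Both lists held 28 of them, of which 26 lay over *CMC1* and *AZI2*, upstream of *EOMES*. The median score of the 28 pairs was 9.21 in naive and 14.5 in primed PSCs, and 19 of the 28 had the higher score in primed PSCs. The promoter with the highest naive score among them was *SLC4A7*, a bicarbonate transporter gene at 242 kb (15.56 in naive and 10.89 in primed PSCs, 12 and 11 reads), and the one with the highest primed score was *AZI2* at 627 kb (10.36 and 21.58). At *NEK10*, on the other side of *EOMES*, 6 of 7 interactions were naive-only. The counts and the scores of *EOMES* therefore moved in opposite directions.

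Long interactions, those over 1 Mb, numbered 3 in naive and 26 in primed PSCs for the T-box genes. This was 3.16% of the naive and 18.3% of the primed T-box interactions, against 1.68% and 6.73% over all baited fragments. All 3 naive ones and 19 of the 26 primed ones belonged to *TBX3*. At least 1 long interaction was listed for 6 of the 10 genes in primed PSCs (*TBX2*, *TBX3*, *TBX4*, *TBX18*, *TBX20* and *TBR1*), against 9.73% of all baited fragments, and for 1 in naive PSCs, against 3.55%. Of the 26, 14 spanned over 5 Mb and had 3 to 5 reads each, and requiring at least 10 reads left 11. A single contact between chromosomes, *EOMES* with *TTC28*, was listed in primed PSCs (3 reads).

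**Figure D3:**
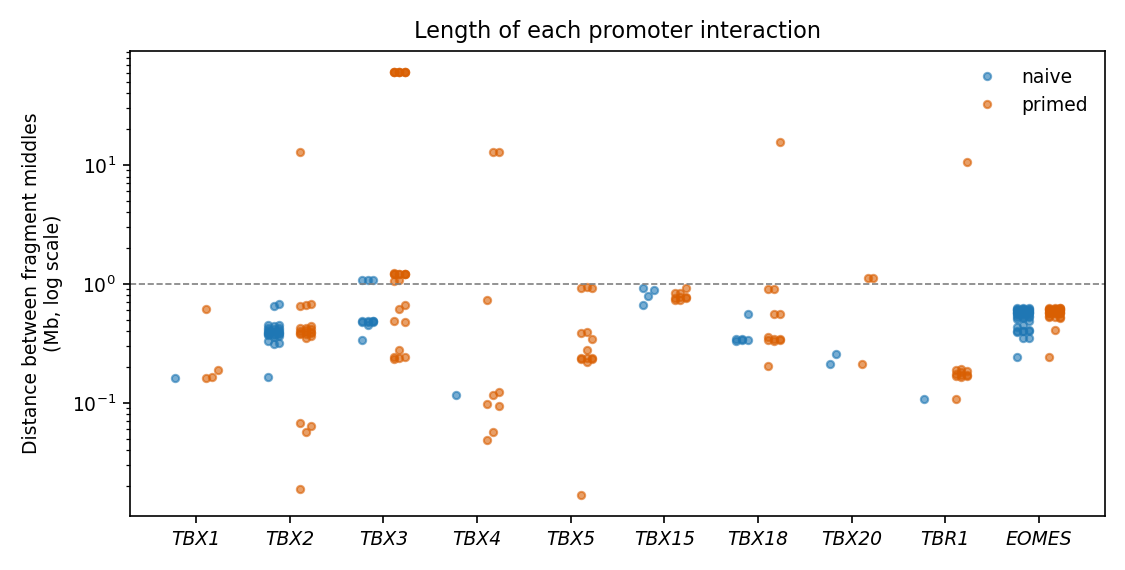
Each point is 1 interaction of a T-box promoter, placed by the distance between the fragment middles in Mb on a log scale, for naive (blue) and primed (orange) PSCs, and the dashed line marks 1 Mb. The longest naive interaction spans 1076 kb, and the primed *TBX3* points reach 60756 kb.

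Contacts between T-box genes aside, 9 of 22 baited partners of T-box promoters in primed PSCs held a gene of the developmental families listed for comparison (homeobox, SOX, GATA, FOX and others), and in naive PSCs 0 of 6. Over all baits these shares were 3.91% and 1.56%. Most of the 9 were long contacts, for which the share over all baits is higher. Over 1 Mb in primed PSCs, 8 of 10 baited partners held such a gene, against 24.2% over all baits. All 9 were *HOX* fragments or *LHX5*, several of them neighbours in the same cluster and *LHX5* counted for both *TBX3* and *TBX5*.

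LIM homeobox and DLX genes, developmental genes that served for comparison, also had more interactions in primed PSCs, 97 and 169 for 11 LIM promoters and 55 and 118 for 5 DLX promoters. Both lists had 0 naive interactions over 1 Mb, and 54 and 37 primed ones, at 8 of the 11 and 4 of the 5 promoters. The 3 naive ones of *TBX3* stood just past that limit, at 1068 to 1076 kb with 13 to 14 reads, so this contrast depends on the limit. The other T-box family genes were *TBXT*, the brachyury gene of the primitive streak, with 2 interactions in naive and 7 in primed PSCs, and *TBX21*, a gene of T cells, with 1 and 2. *TBX6*, *TBX10*, *TBX19*, *TBX22* and *MGA* had no transcript start in a listed bait. A list of 18 T-box cofactors and targets had 20 baits with 173 interactions in naive and 258 in primed PSCs. *HAND2* and *NKX2-5*, partners of T-box factors in the heart, had 0 in naive and 34 and 6 in primed PSCs.

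The Hi-C libraries, made without capture, were read at the same places. The authors captured PCHi-C from Hi-C library DNA, so both readouts may count the same ligation products. The places were also chosen by the PCHi-C lists, so Hi-C is not an independent check here. Each cell type has 1 library of di-tag counts in 100 kb bins, with 52056334 di-tags in primed and 31310843 in naive PSCs. The 26 long primed interactions fell into 9 pairs of bins, and all 9 had more di-tags in the primed library than the mean of that distance on the chromosome (median 4.05 times). Over all baits 1706 of 1798 such pairs were above it (median 4.51 times). The bins of *TBX3* and *LHX5* held 37 di-tags against 20.8 expected, 1.78 times (95% Poisson interval 1.25 to 2.45). The mean of the 3 by 3 bins around them was 0.554 times the expected count, so this excess was held by the single pair of bins. *TBX5* and *LHX5* held 59 against 28.6, 2.06 times and 0.652 times over 3 by 3 bins. The 2 pairs of bins for *TBX3* and *HOXC* held 4 and 2 di-tags where 0.115 and 0.121 were expected. At *TBR1* and *DLX1* a single di-tag stood against 0.958 expected, which is no measurable excess. The 95% Poisson interval also included 1 at *TBX18* and *SIM1* (3 di-tags, 4.05 times, 0.834 to 11.8). The same held at *TBX20* and *MATCAP2* (26 di-tags, 1.07 times, 0.701 to 1.57). The size of these ratios depended on the scaling. With the expectation scaled by the coverage of both bins, they were 7.15 for *TBX3* and *LHX5*, 5.96 for *TBX5* and *LHX5*, and 104 and 98.7 for *TBX3* and *HOXC*.

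Nearer the gene the naive library could be read as well. The naive file leaves out many weak pairs within chromosomes, so ratios to expected were taken only up to 300 kb. *TBX3* and *TBX5*, 200 kb apart in bins, held 191 di-tags in primed PSCs, 0.94 times the expected count, and 88 in naive PSCs, 0.521 times. The primed value was 1.39 with coverage scaling and 0.459 over 3 by 3 bins, so its side of the expected count depended on the scaling. The bins of *TBX3* and its upstream partners at 500 kb held 188 di-tags in naive and 111 in primed PSCs, although the primed library had more di-tags in total. These *TBX3* values differed in the same direction as the PCHi-C lists. At *TBR1* the bins at 200 kb, with primed interactions only, did so too, with 2.36 times in primed and 1.43 times in naive PSCs. The other *TBX5* bins up to 300 kb did not follow, although *TBX5* had no listed naive interaction. At 300 kb they held 4.33 times the expected count in primed and 5.11 times in naive PSCs. At 100 kb these values were 0.736 and 1.47. *TBX2* and *TBX4*, whose direct contact was listed in primed PSCs alone, also did not follow: their bins held 0.269 times the expected count in primed and 0.366 times in naive PSCs. Nor did *TBX1* at 200 kb, with 1 naive and 3 primed interactions (0.908 times in primed, 1.5 in naive PSCs). Others against the lists were *TBX4* at 100 kb (1 and 4, 1.92 and 2.11) and *TBX2* at 300 kb (15 and 8, 5.62 and 4.88). So were *TBX2* at 200 kb (1 and 0, 0.597 and 0.553) and *TBX20* at 300 kb (1 and 0, 1.11 and 0.954). *TBX18* at 200 kb, with a primed interaction only, had nearly equal ratios (1.16 and 1.14). With 1 library each, none of these differences was tested.

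H3K4me1 was summarised as the mean log2 RPM (reads scaled to library size) of the 500 bp tiles in a fragment. The 5 libraries held about 6740000 to 26600000 reads. Correlations over fragments, taken on the log2 of the mean RPM instead, were 0.833 to 0.896 within and 0.566 to 0.61 between cell types. An empty tile stands at 0.9 reads, which is -4.6 and -2.91 in the naive and -4.89 to -3.13 in the primed libraries, so the lowest levels are bounded by depth. As a check of the labels, 3 of 5 baits of naive marker genes with a listed bait had more H3K4me1 in naive PSCs and none in primed PSCs, among them *DPPA5*, whose difference was 2.82 (log2). Of 9 baits of primed marker genes, 1 was higher in primed and 2 in naive PSCs, so H3K4me1 at the promoter did not follow these labels at each gene.

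H3K4me1 was higher in primed PSCs at 3 of the 10 T-box baits (*TBX4*, *TBX5* and *TBX15*) and higher in naive PSCs at none, against 7.04% and 16.4% of all baited fragments (limma with Benjamini-Hochberg adjustment over 88413 fragments, adjusted p under 0.05). The median difference of the 10, naive minus primed, was -0.48 on the log2 scale, against 0.17 over all baited fragments. In the comparison lists, 6 of 11 LIM baits (median -1.03) and 0 of 5 DLX baits (median 0.15) were higher in primed PSCs. *TBX15* had the lowest naive level, with log2 RPM of -3.05 and -2.52 in naive against 1.01, 0.57 and 0.60 in primed libraries. The difference was -3.51 ± 0.37 (SE, adjusted p = 6.7e-08, limma), and both naive values lay well below every primed one, with the second naive library near its floor of -2.91.

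*TBX5* had -1.79 and -1.62 in naive against 0.26, 0.07 and 0.19 in primed libraries, a difference of -1.88 ± 0.36 (adjusted p = 0.00021, limma). *TBX4* had -1.82 and -0.98 against -0.01, -0.28 and -0.40, a difference of -1.17 ± 0.37 (adjusted p = 0.021, limma). The groups did not overlap at either gene, nor at *TBX20*, whose difference of -0.43 was far from the threshold (adjusted p = 0.49, limma). How often the groups fail to overlap over all baits was not counted, so the lack of overlap adds no support. The *TBX4* call was lost without the first naive library (adjusted p = 0.41), without the intensity trend in limma (adjusted p = 0.066), and with the replicate number as a block (adjusted p = 0.059).

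*TBX3* had the highest mean naive level of the 10 baits after *EOMES*, and its naive and primed levels were close. Its log2 RPM was 0.15 and 0.47 in naive and 0.71, 0.16 and 0.42 in primed libraries, so the groups overlapped, with a difference of -0.12 ± 0.37 (adjusted p = 0.91, limma). *EOMES* had 0.99 and 0.06 in naive and 1.46, 0.39 and 0.68 in primed libraries, which also overlapped. *TBR1* had -0.14 and 0.03 against 1.0, 0.41 and 0.54, which did not overlap, but the difference of -0.71 missed the threshold (adjusted p = 0.20, limma). It passed after quantile normalisation (adjusted p = 0.029) and in edgeR on recovered reads (adjusted p = 0.034). The differences at *TBX1*, *TBX2*, *TBX18*, *TBX20* and *EOMES* ran from -0.54 to -0.32 and missed the threshold. With so few libraries, a miss does not show equal levels.

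**Figure D4:**
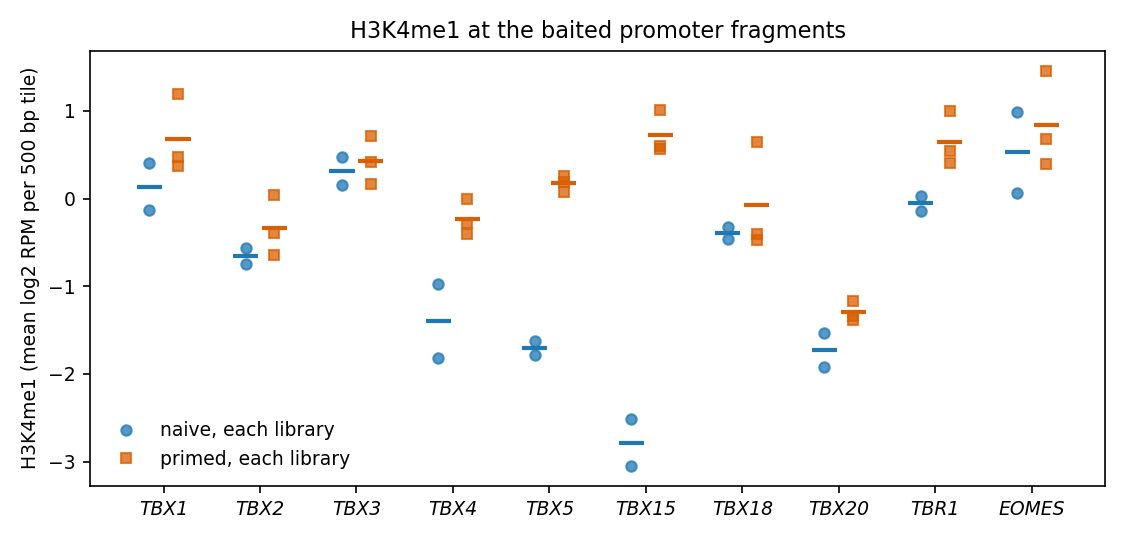
H3K4me1 at the 10 baited fragments as the mean log2 RPM of the 500 bp tiles, with a point for each of the 2 naive (blue) and 3 primed (orange) libraries and a bar for the group mean. The groups stand farthest apart at *TBX15* and overlap at *TBX3*.

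Single tiles within the baits gave the same order, but they are the values averaged in the fragments and so no separate support. Tested tiles were those above 0 log2 RPM in at least 2 libraries. A tile could therefore be tested through the cell type in which it was high. *TBX15* had 8 of 8 tested tiles higher in primed PSCs, *TBX5* 33 of 38 and *TBX4* 7 of 13, and no bait had a tile higher in naive PSCs. Over all tested tiles 25.9% were higher in primed and 26.1% in naive PSCs. *TBX3* had 2 of 9 tiles higher in primed PSCs, the larger at chr12:114683501-114684000, which lies just downstream of the transcript start at 114684175 and had -0.64 and -0.43 in naive against 1.18, 0.48 and 0.97 in primed libraries (difference -1.41 ± 0.45, adjusted p = 0.017, limma). *TBXT* also had a bait with less H3K4me1 in naive PSCs (-1.20 ± 0.37, adjusted p = 0.016, limma), whereas *TBX21* missed the threshold (-0.53, adjusted p = 0.36). Of the 20 cofactor and target baits, 5 were higher in primed PSCs and none in naive PSCs, the largest being *CER1*, a target of *EOMES*, at -3.59 (adjusted p = 1.6e-07, limma).

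At the partner fragments of *TBX3* H3K4me1 was higher in primed PSCs at 9 of 37 and higher in naive PSCs at 2. At the 145 partner fragments of the other 9 genes these numbers were 25 and 8. Over all 88413 fragments 8.99% were higher in primed and 14.2% in naive PSCs. The 9 of *TBX3* were primed-only partners, 4 of the 8 fragments at *LHX5* and all 5 at *TBX5* and its upstream side. The strongest, chr12:114448874-114449233, had -2.12 and -2.50 in naive against 1.0, 0.53 and 0.49 in primed libraries (difference -2.99 ± 0.37, adjusted p = 5.5e-07, limma). Its middle 300 bases are the *TBX3* region printed above.

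Of the 9 naive-only partners of *TBX3*, 1 was higher in naive PSCs. This fragment, chr12:115127262-115133166 at 447 kb, had -0.34 and -0.32 in naive against -2.30, -2.44 and -2.70 in primed libraries (difference 2.15 ± 0.36, adjusted p = 4e-05, limma), and its naive interaction had a score of 9.1 and 36 reads. It is the largest naive excess among all T-box partners, and it passed under each of 12 alternatives (1.97 to 2.24). The other 8 naive-only partners ran from -0.58 to 0.48 and missed the threshold. The other *TBX3* partner that was higher in naive PSCs was the primed-only *HOXC11* fragment (difference 1.41 ± 0.36, adjusted p = 0.0042, limma), a call that was lost without either naive library.

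The partners of the other genes that were higher in primed PSCs lay mainly at *TBX5*, *EOMES* and *TBX15*. *TBX5* had 8 of 14, with chr12:114170008-114170611 at -2.96 ± 0.38 (adjusted p = 9.7e-07, limma). *TBX15* had 4 of 12, with chr1:118248391-118250041 at -3.43 and -2.90 in naive against 0.25, -0.68 and 0.62 in primed libraries (difference -3.23 ± 0.39, adjusted p = 4.8e-07, limma), the largest difference of any T-box partner. Its second naive value stands at the floor of that library (-2.91), so depth bounds the size of this difference. The fragment stands 739 kb from the gene and its interaction rested on 7 reads. *TBX2*, *TBX18* and *TBX20* had 2 each. *EOMES* had 7 of 44, all 7 among the pairs listed in both cell types.

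The partners of the other genes with more H3K4me1 in naive PSCs were spread over several genes. For *TBX18* these were 2 of the 5 shared partners and 1 primed-only neighbour, at 1.10 to 1.27. At *TBR1* it was the shared *PSMD14* promoter, at 1.58 ± 0.36 (adjusted p = 0.0014, limma), a call lost without the first naive library. At *TBX4* it was a primed-only *HOXB* fragment at 1.26. For *TBX2* there were 2. The naive-only fragment chr17:61064861-61066213 (1.47 ± 0.43, adjusted p = 0.011, limma) passed in 6 of 12 alternatives, with differences of 0.96 to 1.9. The fragment chr17:61048996-61050149 in *BCAS3*, which had the next largest naive excess (1.92 ± 0.42, adjusted p = 0.001, limma), was listed as a partner in primed PSCs only and missed the threshold without the second naive library. The naive-only *TBX20* partner at 255 kb was in turn higher in primed PSCs (-1.60 ± 0.37, adjusted p = 0.0016, limma). H3K4me1 and listing as a partner thus did not move together at every fragment.

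Grouped by listing, the median difference was -0.01 at the 9 naive-only, 0.17 at the 3 shared and -0.67 at the 25 primed-only partners of *TBX3*. For the other genes it was 0.09 at 30 naive-only, -0.10 at 53 shared and -0.32 at 63 primed-only partners. Over the partners of all baits it was 0.18, 0.01 and -0.07. The 3 groups over all baits do not take in all of the 83808 partner fragments, whereas the T-box groups take in every T-box partner. The groups are therefore not defined alike, and the shares over all baits are only a rough comparison. Of the T-box partners, 23 of 83 primed-only fragments were higher in primed PSCs (27.7%, against 11.3% over all baits), and 2 of 39 naive-only fragments were higher in naive PSCs (5.13%, against 18.5%). Neighbouring fragments of a run share their reads' surroundings, so these counts describe a few loci rather than separate sites.

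**Figure D5:**
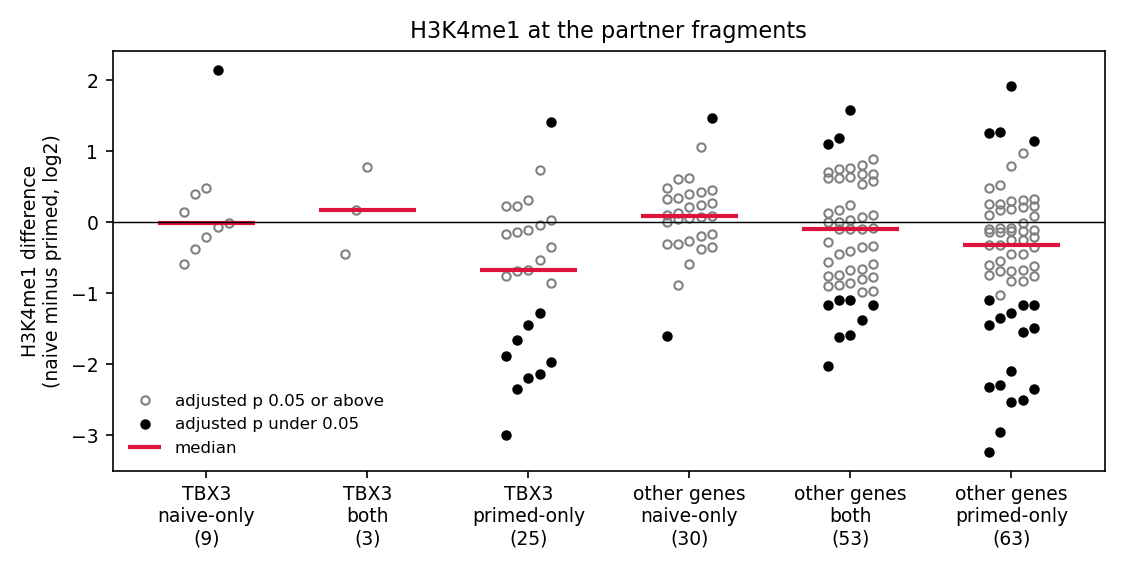
Each point is 1 partner fragment, placed by its H3K4me1 difference (naive minus primed, log2) for *TBX3* or the other 9 genes pooled, grouped by the list that holds the interaction, with filled points for an adjusted p under 0.05 (limma) and a red bar for the median. Of the 6 groups plotted, the lowest median, -0.67, is that of the primed-only *TBX3* partners, and a single naive-only *TBX3* partner stands above the rest at 2.15.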

How the data were processed

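PCHi-C, Hi-C and H3K4me1 CUT&RUN data of naive and primed H9 NK2 PSCs were used. The NANOG, SOX2 and input libraries were left out. In PCHi-C, the authors mapped read pairs to GRCh38 with HiCUP, combined 2 replicates per cell type in CHiCAGO, and deposited each pair with its score and its rounded, combined reads (also a score here, since it is no raw count). A deposited mark, + or - on a baited fragment and a dot on any other, names no gene, and the meaning of + and - is not given in the sources used here. The deposited Hi-C files pair 100 kb bins with the raw count of their di-tags. For H3K4me1 the authors deposited log2 RPM per 500 bp tile, after Trim Galore 0.5.0 and Bowtie2 2.3.2 (the submitters' processing notes).

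The T-box genes, the lists and the tests were chosen with earlier results of these data known. Genes were matched to baits by transcript starts in GENCODE release 44, because the deposited lists hold no names. All 185 fragments used here ended at *Hin*dIII sites of GRCh38. Distances join fragment middles, and pairs listed from both baits were merged. H3K4me1 tiles were averaged per fragment and compared with limma 3.58.1 (2 naive against 3 primed libraries, two-sided, Benjamini-Hochberg adjustment over all fragments, threshold 0.05), a model tested on simulated data. The labels do not tie libraries to separate cultures, so p-values measure the spread between these libraries. Reads recovered from the log2 values (100% of non-empty tiles within 0.05 of a whole read) were tested with edgeR 4.0.16 as an alternative, which called 10642 fragments higher in naive and 10150 higher in primed PSCs, of 54477 tested. Interactions and Hi-C were not tested. Expected Hi-C counts were means over all pairs of bins at that distance on the chromosome. The text names each T-box gene and each contact between them, *LHX5*, up to 3 baited partners with the highest scores per gene and cell type, the longest contact of each, the 5 partners with the largest H3K4me1 difference in each direction, and other T-box family genes. Some items are not reported here. Any other gene or fragment named was chosen after its values were seen. Gene lists and a rule of at least 2 times and 5 more interactions serve as comparisons. Python 3.11.15, scipy 1.17.1 and matplotlib 3.10.9 were used.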

Additional observations from a re-analysis of the deposited data

How the results depend on the processing

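Requiring a score of at least 7 changed the primed over naive ratio of T-box interactions to 1.96 and the numbers over 1 Mb to 15 in primed and 1 in naive PSCs. With a score of at least 10 the ratio was 2.2, the numbers over 1 Mb were 13 and 0, and the *TBX3* ratio was 14, from 1 naive and 14 primed interactions. At least 10 reads lowered the ratio to 1.24 and the *TBX3* ratio from 2.33 to 1.58, and left 11 primed interactions over 1 Mb. Without pairs of baited fragments the ratio was 1.33. With limits of 0.5 and 2 Mb there were 77 and 14 long interactions in primed and 39 and 0 in naive PSCs, and leaving out those over 5 Mb, an alternative chosen after seeing the data, left 12 in primed PSCs and a *TBX3* ratio of 1.58. Matching ends within 10 kb raised the share of interactions found in both cell types from 30.9% to 49.7%. PCHi-C replicates were combined by the authors and could not be left out.

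For H3K4me1 at the partners of the genes other than *TBX3*, the number higher in naive PSCs fell from 8 to 2 with quantile normalisation, 4 with median centring, 5 above the median fragment, 2 without the trend and 3 in edgeR (chosen after seeing the data). Over all fragments, naive calls made up 10195 against 9028 with quantile normalisation and 12513 against 7944 without it. Of 394 tested tiles at T-box baits and partners, 29 were higher in naive and 147 in primed PSCs. Testing tiles with a mean above 0 instead gave 3 and 34 of 209. Over all 185596 tiles of that kind, 14286 were higher in naive and 23480 in primed PSCs. Leaving out single libraries gave 1 to 13 naive and 8 to 26 primed calls at these partners, 1 to 2 and 6 to 9 at *TBX3* partners, 0 and 2 to 3 at baits, and 15 to 37 and 97 to 148 tiles. Without the first naive library there were 8 primed and 3 naive calls at the other genes' partners, 1 naive call at *TBX3* partners and 15 naive tiles. Without the second there were 1 and 1 naive calls, 19 naive and 97 primed tiles, and without the first primed library 13 naive calls at the other genes' partners. In the other alternatives the counts of baits higher in primed PSCs stayed within 1.5 times of 3. Without either naive library, calls in both directions also became fewer over all fragments and over all tested tiles. The lower counts at T-box fragments in those settings therefore do not set these fragments apart. Without the first primed library, naive calls over all fragments hardly changed (12529 against 12513), unlike the rise to 13 at the other genes' partners.

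Same-numbered libraries share only a number. Deviations from the group means correlated at 0.0749 and 0.191. With the replicate block the *TBX4* bait missed the threshold (-1.25, adjusted p = 0.059, limma), and 10600 fragments were higher in naive and 7697 in primed PSCs. Of the 9 Hi-C pairs above expected, 7 remained so over 3 by 3 bins and 9 with coverage-scaled expectations.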
